A study of Rattus norvegicus with 8 samples.

Results

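The small leucine-rich proteoglycans (SLRPs) are secreted matrix proteins, and 7 of their genes were followed here: Dcn (decorin), Bgn (biglycan), Lum (lumican), Fmod (fibromodulin), Prelp (PRELP), Omd (osteomodulin) and Ogn (osteoglycin). The genes were chosen by symbol, as the array platform annotates its probes, out of 13337 genes that had a probe. Each of the 7 genes had exactly 1 probe, and 6 of them could be tested. The cells were ASCs, adipose-derived mesenchymal stem cells, from the inguinal and interscapular fat of LEW rats (Lewis/Jms), the strain with acute rejection, or of PVG rats (Piebald Virol Glaxo), the strain with spontaneous tolerance. All rats were 8 weeks old and untransplanted, and their ASCs received PBS as control or LPS (the bacterial endotoxin sensed through TLR4) at 1 µg/ml for 24 h or 48 h. The 4 groups of strain and treatment therefore held 2 arrays each, 1 per time point, on the Illumina RatRef-12 BeadChip.

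RNA of 3 rats was pooled on each array, and the ASCs of every rat were divided over the 4 conditions of its strain. The 4 arrays of a strain thus shared the same rats, so the p-values measure the spread between 24 h and 48 h arrays of 1 pool per strain, not the spread between rats. The labels give no sex, and the methods name female Lewis rats for ASC isolation but male rats as purchased. The methods also name different sources, a university in Kyoto for PVG rats and a breeding centre in Taipei for LEW rats. A difference between strains and one of sex, source, litter or cell isolation therefore cannot be told apart. Between 8947 and 9509 of the 22523 probes were detected per array (detection p under 0.05, taken against negative control probes). Of 14 fibroblast and mesenchymal stem cell (MSC) markers on the array, 11 were detected in every sample. Ptprc (the leukocyte marker CD45), Cdh5 (endothelial cadherin) and Adipoq (the adipocyte hormone adiponectin) were undetected on all 8, but other markers of their lists were detected. Of the markers with a probe, 8 of 13 leukocyte, 4 of 10 endothelial and 3 of 11 adipocyte markers were undetected on all 8 arrays. Detected on all 8 were 1 leukocyte, 3 endothelial and 0 adipocyte markers.

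SLRPs have a core protein of leucine-rich repeats that binds the surface of collagen fibrils and limits how they fuse and cross-link. Their core proteins carry chondroitin or dermatan sulfate chains (decorin, biglycan) or keratan sulfate chains (lumican, fibromodulin, osteomodulin), and several also bind growth factors such as TGF-β. When biglycan and decorin are released from the matrix they can be sensed through TLR2 and TLR4, the receptors of microbial products, and decorin and lumican are abundant products of fibroblasts in most connective tissues.

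Sequence before an annotated start was taken from RefSeq (GRCr8), where 4 of the 7 members matched by symbol (Lum, Fmod, Ogn and Omd) and Dcn, Bgn and Prelp did not. Lum, Fmod and Ogn are shown because Lum and Fmod gave higher and Ogn gave lower signals on the LPS arrays. Motif matches are in capitals, positions are counted back from the annotated start, and both strands were searched over the 250 bases before it. For Fmod the whole window of 250 bases is shown (chr13:48045317-48045566, plus strand). For Lum (plus strand) and Ogn (minus strand) the table's start lies 383 and 172 bases inside the RefSeq gene, and only stretches of 30 bases around the matches are shown, at chr7:34245478-34245507, chr7:34245563-34245592, chr7:34245676-34245705 and chr17:15259202-15259231 in that order. The whole Lum window thus lies inside the RefSeq gene, and none of it is upstream of that gene's first base. The Ogn stretch shown lies before its gene.
Fmod: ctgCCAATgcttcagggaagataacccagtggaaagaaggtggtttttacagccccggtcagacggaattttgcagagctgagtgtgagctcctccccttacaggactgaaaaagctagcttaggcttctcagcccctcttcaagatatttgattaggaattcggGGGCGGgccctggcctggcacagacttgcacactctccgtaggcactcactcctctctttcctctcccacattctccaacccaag
Lum, first stretch: gtctgttctgtcCACCTGcacttcgttaga
Lum, second stretch: agaggctggcgtgATTGGgctggtcccccc
Lum, last stretch: tgttcacagtgcgtctgtTTAAGGAAttaa
Ogn: attttaaaaagaTTTATAAActagcattca

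The Fmod window held a CCAAT box at -247 and a GC box, GGGCGG, at -85, motifs that 34.3% and 32.4% of 27457 rat promoter windows of the same length also held. In the Lum window an E-box of the form CANCTG lay at -216, where 42.9% of all windows have one, and CCAAT lay on the minus strand at -130. A match to TTNCNNAA, the form bound by C/EBP factors, began at -12 on the minus strand, as it does somewhere in 36.8% of windows. The Ogn window held TATAAA on both strands in overlapping positions, at -224 and -222, a motif found in 13.1% of windows. No match to the NF-kB motif (6.41% of windows), the AP-1 motif TGANTCA (6.36%), the CArG box of SRF (1.50%) or the SMAD motif CAGACA (16.9%) was in any of these 3 windows, which says only that these letters are not there.

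The signals of the SLRP probes, scaled to a common 75th percentile on each array, differed between the strains in both directions. Dcn and Lum were far lower in PVG ASCs, Ogn was moderately lower, Prelp and Bgn were higher, and Fmod did not pass the test. Of the 6 members tested, 2 were higher and 3 lower in PVG than in LEW at a Benjamini-Hochberg adjusted p under 0.05 (limma), whereas 7.45% of all 9552 probes tested were higher and 7.46% lower. The members were chosen with earlier results of these data known, so the comparison with all probes is a description. The median log2 difference over the 6 members was -0.44, and over all probes it was -0.01. Without regard to sign, the median difference was 1.14 for the members and 0.13 for all probes. Lower RNA per cell and fewer expressing cells cannot be told apart in these bulk samples, nor can a sequence difference between the strains under the single probe of a gene.

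**Figure D1:**
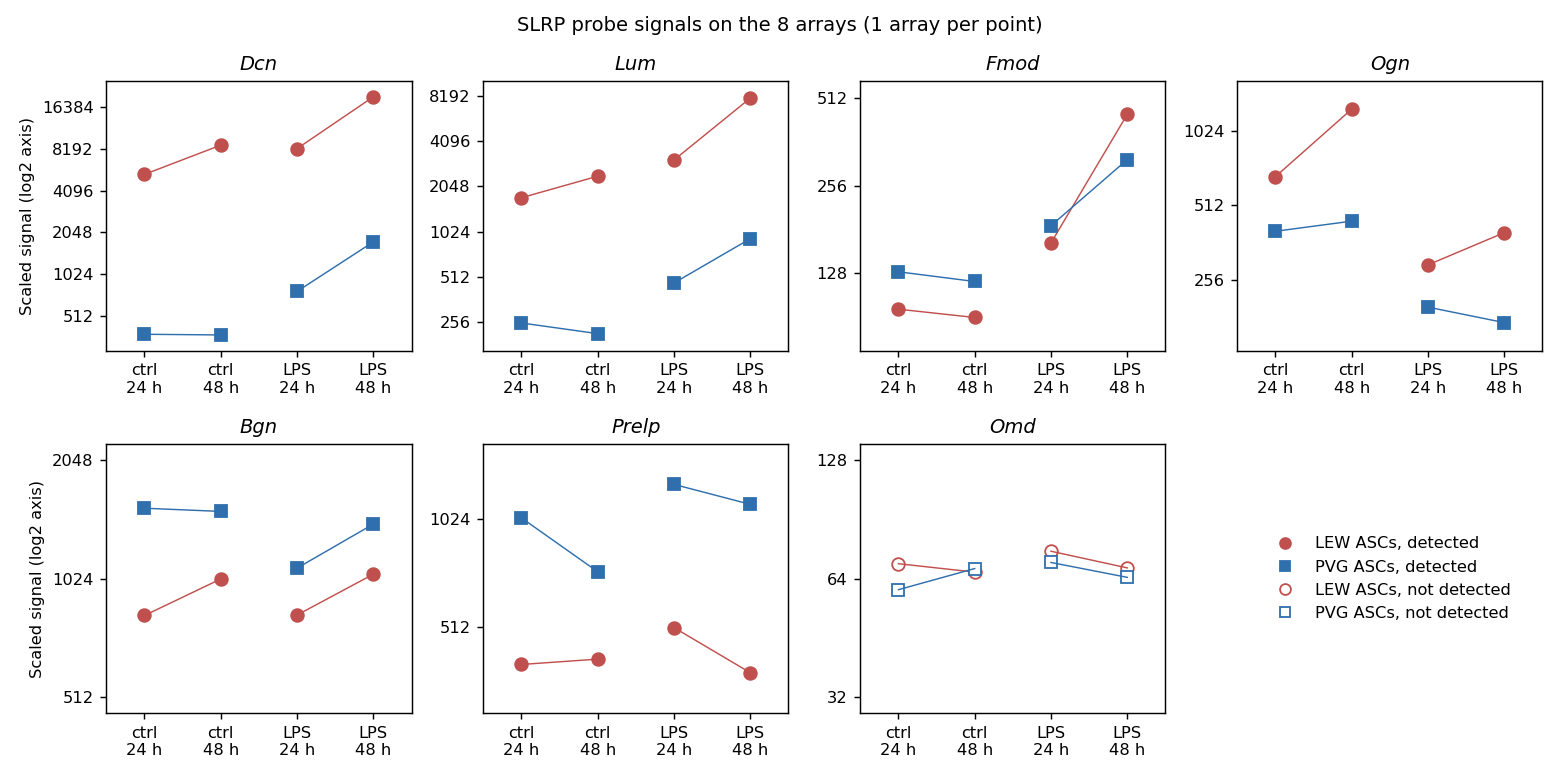
Scaled signal of the probe of each SLRP gene (vertical axis, log2 spacing, own range per gene) on the 8 arrays, with LEW ASCs as circles and PVG ASCs as squares, lines joining the 24 h and 48 h arrays of a group, and open symbols for undetected probes. Dcn and Lum sit lower on all 4 PVG arrays than on any LEW array, Bgn and Prelp sit higher, and Omd was undetected throughout.

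Decorin, which spaces collagen fibrils and holds TGF-β in the matrix, had the largest strain difference of the members. The Dcn signal in LEW ASCs was 5382 at 24 h and 8751 at 48 h in the control arrays, and 8261 and 19576 in the LPS arrays. In PVG ASCs it was 376 and 372 in the control arrays and 767 and 1750 in the LPS arrays. The highest PVG array, that of LPS at 48 h, thus lay below the lowest LEW array, that of the control at 24 h. The fitted difference of Dcn was 14.2-fold, with PVG the lower (-3.83 on the log2 scale with a standard error of 0.32, limma adjusted p = 0.000116, n = 4 arrays per strain). Taken time point by time point, the PVG signal was 14.3-fold and 23.5-fold lower in control ASCs and 10.8-fold and 11.2-fold lower with LPS.

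Lumican, the keratan sulfate proteoglycan of cornea, skin and tendon, was also lower on every PVG array than on any LEW array. Its LEW signals were 1722 and 2398 in the control arrays at 24 h and 48 h, and 3079 and 7978 in the LPS arrays. The PVG signals were 251 and 213 in control and 464 and 917 with LPS. The highest PVG array, LPS at 48 h, was below the lowest LEW array, control at 24 h, and the fitted difference was 8.18-fold (log2 -3.03, standard error 0.31, adjusted p = 0.000336). Dcn and Lum were the 2 members with all 4 PVG arrays below all 4 LEW arrays, an arrangement that 9.33% of all probes tested also had.

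Osteoglycin, also called mimecan, a small proteoglycan of bone, vessel wall and cornea, was lower in PVG as well, with groups that overlapped between strains. Ogn gave 669 at 24 h and 1257 at 48 h in LEW control ASCs, and 294 and 397 in LEW ASCs with LPS. In PVG it gave 402 and 442 in control and 198 and 171 with LPS. The PVG control arrays lay above the LEW LPS arrays, but at each treatment and time the PVG array was the lower one, by 1.48-fold to 2.85-fold. The fitted difference was 2.01-fold (log2 -1.01, standard error 0.19, adjusted p = 0.00861). It no longer passed when the PVG control array of 24 h was left out (adjusted p = 0.0622).

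PRELP, which links basement membranes to the collagen beneath them, went the other way. The Prelp signal was 402 and 416 in LEW control ASCs and 509 and 381 in LEW ASCs with LPS, at 24 h and 48 h. In PVG it was 1034 and 730 in control and 1283 and 1128 with LPS. The lowest PVG array was above the highest LEW array, and the fitted difference was 2.41-fold higher in PVG (log2 1.27, standard error 0.14, adjusted p = 0.00047). The strain differences of Dcn, Lum and Prelp passed in each of the 8 fits that left out 1 array, with adjusted p values of at most 0.00472, 0.00932 and 0.00452.

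Biglycan, the closest relative of decorin and a ligand of TLR2 and TLR4, was modestly higher in PVG. Bgn gave 825 and 1022 in LEW control ASCs, and 827 and 1051 in LEW ASCs with LPS. In PVG it gave 1545 and 1516 in control and 1089 and 1408 with LPS, so that the lowest PVG array was only slightly above the highest LEW array. The difference was 1.49-fold (log2 0.57, standard error 0.13, adjusted p = 0.0163). It rested on single arrays: leaving out LEW control at 24 h raised the adjusted p to 0.0556, leaving out PVG control raised it to 0.0743 (24 h) or 0.0597 (48 h), and leaving out PVG LPS at 48 h raised it to 0.0595. Bgn and Prelp were the 2 members with all PVG arrays above all LEW arrays, as were 9.33% of all probes tested. Bgn lies on the X chromosome, and the sex of the rats is not given by the labels.

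Fibromodulin, which directs the cross-linking of collagen fibrils in tendon, showed no strain difference that passed the test. The Fmod signal in LEW was 96.4 and 90.3 in control and 163 and 450 with LPS. In PVG the same arrays gave 130 and 120, and 187 and 314. The strains overlapped, and the fitted difference was 0.13 (standard error 0.29, adjusted p = 0.846). Osteomodulin, the keratan sulfate proteoglycan of bone, was undetected on all 8 arrays: the Omd probe gave signals of 60.0 to 75.1 with detection p values of 0.24 to 0.754, and it was not tested. A signal at the level of the negative controls says that Omd was not detectable by this probe, and no fold is given for it.

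**Figure D2:**
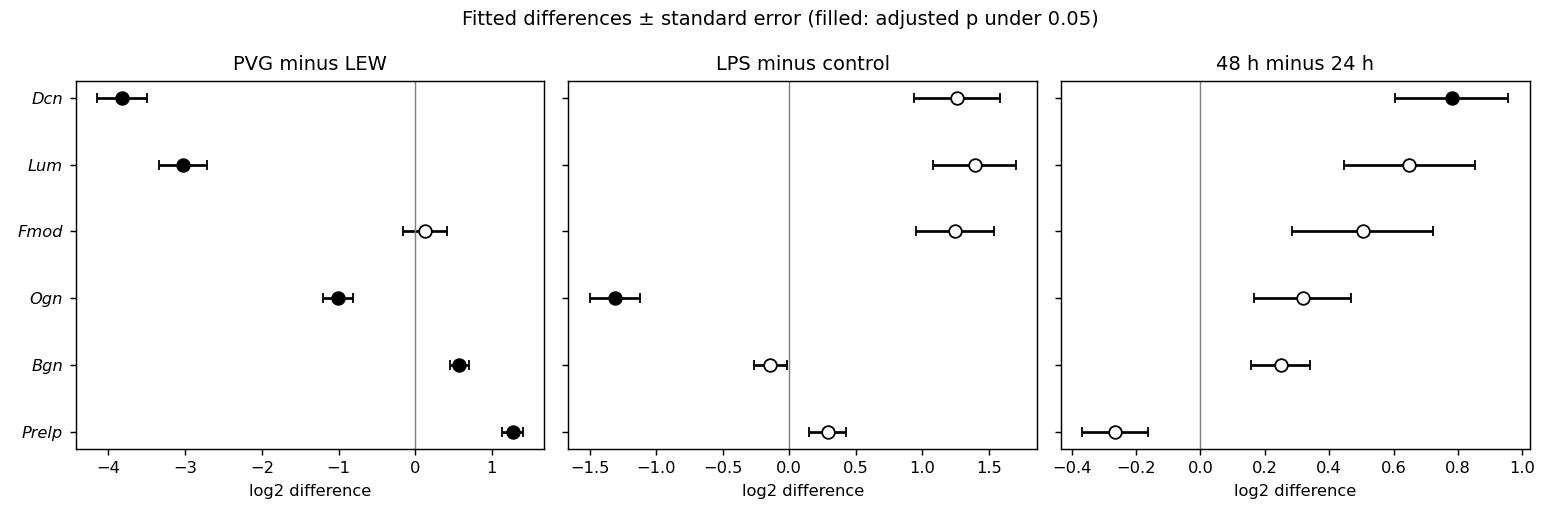
Fitted log2 differences of the 6 SLRP genes tested (horizontal axes, separate range per panel) for PVG minus LEW, LPS minus control and 48 h minus 24 h, with bars of 1 standard error and filled symbols where the adjusted p was under 0.05. The strain differences run from -3.83 for Dcn to 1.27 for Prelp, whereas among the LPS responses the symbol of Ogn, at -1.31, is the filled one.

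Within the control ASCs alone, the same comparison asks whether the strains differed before any endotoxin. In the control arrays 5 members passed, Prelp and Bgn higher and Dcn, Lum and Ogn lower in PVG, while 3.63% of all probes were higher and 3.31% lower. Dcn was 18.4-fold lower (adjusted p = 0.00105) and Lum 8.80-fold lower (adjusted p = 0.00353), whereas Prelp was 2.13-fold higher (adjusted p = 0.0119). The smaller differences of Bgn (1.67-fold higher, adjusted p = 0.0424) and Ogn (2.18-fold lower, adjusted p = 0.0432) were near the threshold. Only Dcn passed in every fit that left out 1 array. Lum was at adjusted p = 0.0616 and 0.0614 when PVG control at 24 h and at 48 h was left out. Prelp was at 0.062 and 0.0708 when LEW control at 24 h and at 48 h was left out, and at 0.103 when PVG control at 24 h was. Bgn was at 0.0829 to 0.219 with any 1 of the 4 control arrays removed. Ogn was at 0.154 to 0.262 with a PVG control array or LEW control at 48 h removed, and at 0.0635 with a PVG LPS array removed.

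With LPS, 3 members differed between the strains: Prelp was 2.73-fold higher in PVG (adjusted p = 0.00338), and Dcn and Lum were lower at log2 differences of -3.46 and -2.93 (adjusted p = 0.00326 and 0.00616). Matched by time point, the log2 differences were -3.43 (24 h) and -3.48 (48 h) for Dcn and -2.73 and -3.12 for Lum. With 1 LPS array left out, 1 time point of a strain is set against both of the other, and the sizes varied. Leaving out LEW LPS gave -4.08 (24 h) or -2.83 (48 h) for Dcn and -3.61 or -2.24 for Lum. Without PVG LPS the difference of Dcn was -2.86 (24 h left out) or -4.05 (48 h left out). Of all probes, 2.93% were higher and 3.12% lower in this comparison. The LPS-treated Ogn (log2 difference -0.89, adjusted p = 0.105) and Bgn (log2 difference 0.41, adjusted p = 0.255) kept the sign they had in control ASCs without passing. Ogn passed when the time point was a block (adjusted p = 0.0209), when either LEW control array was left out (0.0273 for each) and when LEW LPS at 24 h was left out (0.0457). None of the 6 members passed the test of the interaction of strain and LPS in limma, none had an unadjusted p under 0.05 for it, and none passed in an analysis of variance without moderation. Over all probes, 0.0105% and 0.0209% passed it with a higher and a lower LPS response in PVG. The largest interaction among the members was that of Dcn (log2 0.74, standard error 0.65, adjusted p = 0.999), so its LPS response was not shown to differ between the strains.

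The LPS response divided the members into genes with higher signals, a gene with lower signals and genes with small differences. Ogn fell 2.48-fold over both strains (log2 difference -1.31, standard error 0.19, adjusted p = 0.0121 by limma), 1 member among 6, against 0.806% of all probes that were lower. The Ogn signal with LPS was below that of the matched control at both times in both strains, with control over LPS ratios of 2.28 and 3.17 in LEW at 24 h and 48 h and of 2.03 and 2.58 in PVG. This arrangement was met by 14.8% of all probes. The call was lost when PVG control at 24 h (adjusted p = 0.101), PVG control at 48 h (0.0976) or PVG LPS at 48 h (0.0506) was left out.

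Dcn, Lum and Fmod had higher signals with LPS in all 4 pairs of arrays, an arrangement whose share over all probes was not counted. Their adjusted p values were above the threshold, which 1.46% of all probes passed with a higher signal. The fitted log2 differences were 1.26 for Dcn (standard error 0.32, adjusted p = 0.106), 1.39 for Lum (standard error 0.31, adjusted p = 0.0628) and 1.25 for Fmod (standard error 0.29, adjusted p = 0.0746). With the time point as a block, which takes the common difference between 24 h and 48 h out of the spread, the same differences had adjusted p values of 0.0022, 0.00279 and 0.0076. The share of all probes that passed with the block is not given, but among the alternatives the count reached 585, with 216 in the main fit. The call thus depended on how the time points were treated. Leaving out LEW LPS at 24 h left that group with its 48 h array alone, so the time points were no longer balanced. The fitted log2 differences were then 1.57 for Dcn, 1.74 for Lum and 1.61 for Fmod. Without LEW LPS at 48 h they were 1.05 for Lum and 0.88 for Fmod. The median log2 LPS response was 0.77 over the 6 members and -0.01 over all probes.

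For these 3 genes the ratio of LPS over control was larger at 48 h than at 24 h in both strains. In LEW the Dcn ratio was 1.54 at 24 h and 2.24 at 48 h, and in PVG it was 2.04 and 4.71. The Lum ratio was 1.79 and 3.33 in LEW and 1.85 and 4.31 in PVG. Fmod gave 1.69 and 4.98 in LEW and 1.44 and 2.62 in PVG. A ratio above 1 at 24 h that was larger at 48 h in both strains was found for 4.05% of all probes tested and for 3 of the 6 members. Each ratio rests on 1 pair of arrays and was not tested by itself. The lowest Fmod signals were near the background, 90.3 for LEW control at 48 h. Background correction with neqc gave an Fmod LPS response of 3.74-fold in place of 2.37-fold (adjusted p = 0.0352).

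**Figure D3:**
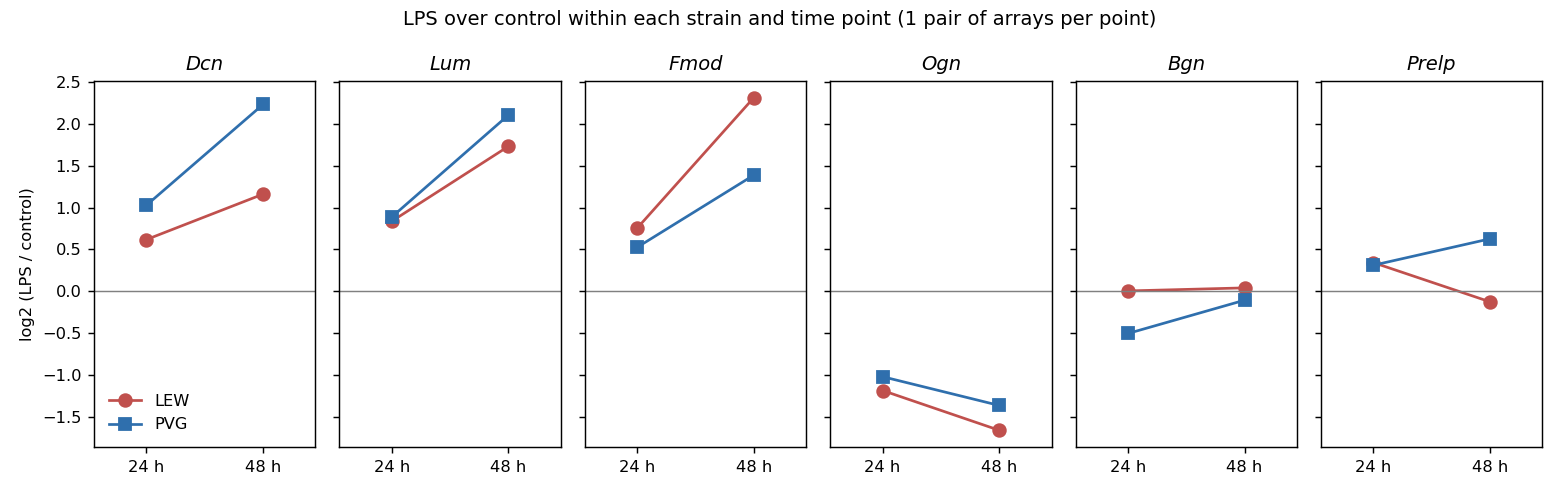
Log2 ratio of the LPS array over its control array (vertical axis) at 24 h and 48 h for each SLRP gene tested, with LEW as circles and PVG as squares, 1 pair of arrays per point. Dcn, Lum and Fmod lie above 0 and are higher at 48 h in both strains, Ogn lies below 0 at all 4 points, and Bgn and Prelp lie between -0.51 and 0.63.

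Bgn and Prelp had the smallest LPS responses (log2 -0.14 and 0.29, standard errors 0.13 and 0.14, adjusted p = 0.733 and 0.443). The Bgn ratio of LPS over control was 1.00 and 1.03 in LEW and 0.705 and 0.929 in PVG. Prelp gave 1.27 and 0.916 in LEW and 1.24 and 1.54 in PVG. A p above the threshold does not show that these genes did not respond.

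Within a single strain no member passed the LPS test in limma. In LEW, 3 members had an unadjusted p under 0.05 (Lum, Fmod and Ogn), and none passed in the analysis of variance without moderation. At an adjusted p under 0.05, where no member passed, 0.534% and 0.115% of all probes were higher and lower. With the time point as a block Lum (log2 1.29, adjusted p = 0.0406), Fmod (1.54, adjusted p = 0.0264) and Ogn (-1.43, adjusted p = 0.00613) passed in LEW. The share of all probes that passed with the block is not given. Among the alternatives the count of all probes for LPS in LEW reached 336, with 62 in the main fit. In the fit that lacked LEW LPS at 24 h the log2 responses of Lum and Fmod in LEW were 1.97 and 2.27. In the one that lacked LEW control at 24 h that of Ogn was -1.88. Each of these fits left 1 time point in that group. In PVG, 5 members had an unadjusted p under 0.05, and none passed without moderation. At an adjusted p under 0.05, again with no member, 0.283% and 0.0314% of all probes were higher and lower. The shares of all probes at an unadjusted p under 0.05 are not given here, so the counts of 3 and 5 members have no background beside them. With the block Dcn (1.63, adjusted p = 0.0103), Lum (1.50, adjusted p = 0.0296) and Ogn (-1.19, adjusted p = 0.0222) passed in PVG. For LPS in PVG the count of all probes reached 172 among the alternatives, with 30 in the main fit. Fits that lacked 1 LEW array left the PVG responses of Lum (1.50) and Ogn (-1.19) unchanged, so in them a PVG call could change only through the estimated spread and the adjustment.

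Over both strains and treatments, 1 member differed between the time points: Dcn was 1.72-fold higher at 48 h than at 24 h (log2 0.78, standard error 0.18, adjusted p = 0.0374), and 1.33% of all probes were higher and 2.60% lower. The 48 h over 24 h ratio of Dcn was 1.63 in LEW control, 2.37 in LEW with LPS and 2.28 in PVG with LPS, but 0.989 in PVG control, so that 3 of 4 pairs moved upwards. The call was lost without either LEW control array (adjusted p = 0.0743) and without either PVG LPS array (0.149). Lum had a log2 difference of 0.65 (adjusted p = 0.124), and passed without either PVG control array (0.0466). The labels give no chip or scan, so time and the order of processing cannot be told apart.

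Some members lie beside each other in the genome, in the order given by RefSeq (GRCr8). On chromosome 7 the order is Dcn, Lum, Kera and Epyc. The 2 first genes shared the direction of both differences, lower in PVG and a higher signal with LPS, while Kera (keratocan, a corneal SLRP) and Epyc (epiphycan, a cartilage SLRP) were undetected on all 8 arrays. Btg1, the gene before Dcn, had a log2 strain difference of -0.05 (adjusted p = 0.866). On chromosome 17 the order is Ogn, Omd and Aspn: Ogn and Aspn flanked the undetected Omd. On chromosome 13 Prelp and Fmod follow Optc (opticin, an SLRP of the eye), which was undetected. Prelp was higher in PVG, whereas Fmod did not pass for strain, and neither passed for LPS (log2 0.29 for Prelp and 1.25 for Fmod); no test compared the 2 genes with each other.

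**Figure D4:**
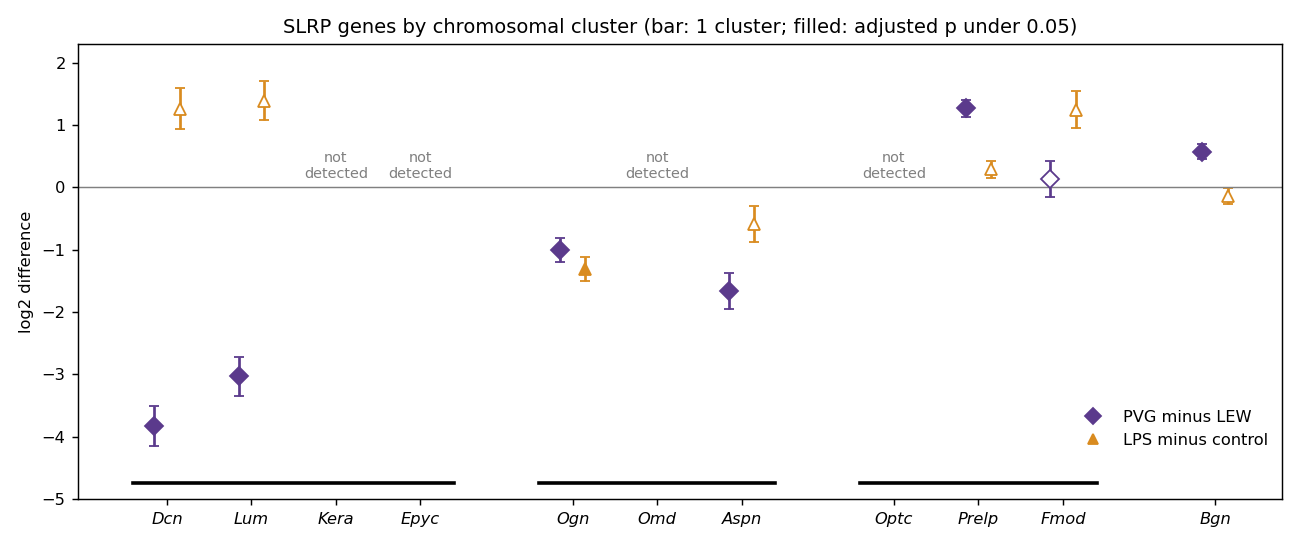
Log2 differences with 1 standard error (vertical axis) for PVG minus LEW (diamonds) and LPS minus control (triangles), with SLRP genes in their RefSeq order along each chromosome and black bars joining genes of 1 cluster; genes without a probe are left out. Dcn and Lum at -3.83 and -3.03 stand beside the undetected Kera and Epyc, and filled symbols mark an adjusted p under 0.05.

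Among 7 other SLRP family genes with a probe, 2 were tested and both were lower in PVG. Aspn, which encodes asporin, a relative of decorin that binds collagen and TGF-β, gave 708 and 1646 in control and 460 and 931 with LPS in LEW ASCs. The PVG values were 271 and 364 in control and 220 and 234 with LPS. All PVG arrays were below all LEW arrays, and the difference was 3.15-fold (log2 -1.66, standard error 0.29, adjusted p = 0.00576, but 0.0529 when PVG control at 24 h was left out). The Aspn signal was also lower with LPS in each of the 4 pairs, at a fitted log2 difference of -0.60 (adjusted p = 0.455). Tsku, which encodes tsukushi, a secreted inhibitor of BMP and Wnt signalling, was 1.35-fold lower in PVG (adjusted p = 0.0225). It had low signals of 90.9 to 149, and the call was lost when LEW control at 48 h, PVG control at 24 h or either PVG LPS array was left out (adjusted p = 0.0683 to 0.0839). Chad and Nyx were detected on 3 and 1 of the 8 arrays and were not tested.

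The pattern of each member over the 8 arrays was compared with that of 6982 genes by Pearson's r of the log2 signals, as a description without a test. The arrays share strain and pool, so a gene that differs strongly between the strains can reach a high r from that difference alone. Dcn and Lum correlated with each other at r = 0.991. Nearest to Dcn was Adamts5, the gene of an aggrecan-degrading protease, at r = 0.995, and nearest to Lum was Tti1 at r = 0.992, with Dcn next. Prelp was most like Ptgis, the gene of prostacyclin synthase (r = 0.984), and Bgn was most like Tesk1 (r = 0.987). The r of the genes nearest to Fmod (Vopp1, 0.967, and Rcan1, 0.965) and Ogn (Zfand2a, 0.969, and Hibch, 0.968) was slightly lower. Fmod and Ogn correlated at -0.64, and Dcn and Prelp at -0.82.

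The 8 lists of related genes place the SLRPs among their partners. Beside the counts of these lists, 7.45% of all probes tested were higher and 7.46% lower in PVG. With LPS, 1.46% of all probes were higher and 0.806% lower. Of 14 tested genes of collagens bound by SLRPs and of the cross-linking machinery, 3 were higher and 2 lower in PVG (median log2 difference 0.01). Col3a1, the fibrillar collagen of reticular fibres, was 2.43-fold higher (log2 1.28, adjusted p = 0.000152). Col14a1, a fibril-associated collagen, was 3.30-fold lower (log2 -1.72, adjusted p = 8.61e-05), and Dpt, the gene of the decorin-binding protein dermatopontin, was undetected on all PVG arrays and at least 2.96-fold lower (adjusted p = 0.000534). With LPS, 1 of the 14 was higher and 2 lower: Lox, the lysyl oxidase that starts collagen cross-links, at log2 0.43, Loxl1 at -0.62 and the microfibrillar collagen gene Col6a1 at -0.83. The LPS calls of these 3 genes were lost under several settings and single arrays left out, with adjusted p values of up to 0.171.

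Proteases that cut SLRPs, or the matrix to which they bind, gave 2 higher and 2 lower among 10 tested. Adamts5 was 3.76-fold lower in PVG (log2 -1.91, standard error 0.16, adjusted p = 0.000108). Mmp3 (stromelysin, which cleaves decorin) rose with LPS in LEW from a mean of 82.3, with 1 of the 2 control arrays undetected, to 1827 (adjusted p = 7.53e-05), whereas the PVG mean was 116 with LPS and the PVG control arrays were both undetected. Its interaction passed (adjusted p = 0.0153), but only in 2 of the 8 fits that left out 1 array, and since 3 of the 4 control arrays were undetected its size is not given. The macrophage elastase gene Mmp12 was undetected on all LEW arrays and at least 1.60-fold higher in PVG (adjusted p = 0.00294). Mmp9, a gelatinase, was 1.63-fold higher with LPS (adjusted p = 0.0109), and was lost when a PVG control array or PVG LPS at 48 h was left out (up to 0.069).

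Receptors and ligands that SLRPs bind gave 5 higher and 1 lower in PVG among 18 tested. Of the TGF-β genes, Tgfb3 was 8.13-fold and Tgfb2 3.79-fold higher in PVG (log2 3.02 and 1.92, adjusted p = 1.86e-05 and 9.18e-05), and Itgb1, the β1 integrin subunit, was 1.77-fold higher (adjusted p = 0.00026). Tlr2 rose 7.28-fold with LPS (log2 2.86, limma adjusted p = 9.16e-07). Its control mean of 90.7, with 3 of the 4 control arrays detected, was near the background, so the size of this fold is uncertain. Tgfb3 fell with LPS by 1.01 on the log2 scale (limma adjusted p = 0.027), a call that was lost when any PVG array or LEW control at 24 h was left out. Tlr4 was undetected on all 8 arrays, which says only that it was not detectable by its probe.

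The enzymes that build the sugar chains formed 2 further lists. Of 14 tested genes of chondroitin and dermatan sulfate synthesis, 3 passed for strain and all 3 were lower in PVG, where 7.46% of all probes were lower. The median log2 difference of this list was -0.01. Csgalnact1, which starts the chondroitin chain, was 2.45-fold lower (log2 -1.29, adjusted p = 0.00117), and the smaller differences of Chpf and B4galt7 (1.25-fold and 1.31-fold lower) passed in only 1 and 2 of the 8 fits that left out 1 array. Among 8 genes of keratan sulfate synthesis, 2 were higher in PVG: the sulfotransferase gene Chst1 was 1.87-fold higher (log2 0.90, adjusted p = 0.00069), and B3gnt2 was 1.40-fold higher but passed in 1 of the 8 such fits. Of 5 tested genes in a list of other proteoglycans, Cspg4 was higher and Esm1 and Prg4 were lower in PVG. The Cspg4 call was lost when PVG control at 24 h was left out. With LPS, Vcan (versican) and Esm1 (endocan) rose by 1.80-fold and 1.79-fold (limma adjusted p = 0.00645 and 0.00881). The LPS call of Esm1 was lost when PVG control at 48 h was left out. Of 8 heparan sulfate proteoglycan genes, Gpc4 passed for strain (1.65-fold higher, in 3 of the 8 fits that left out 1 array).

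**Figure D5:**
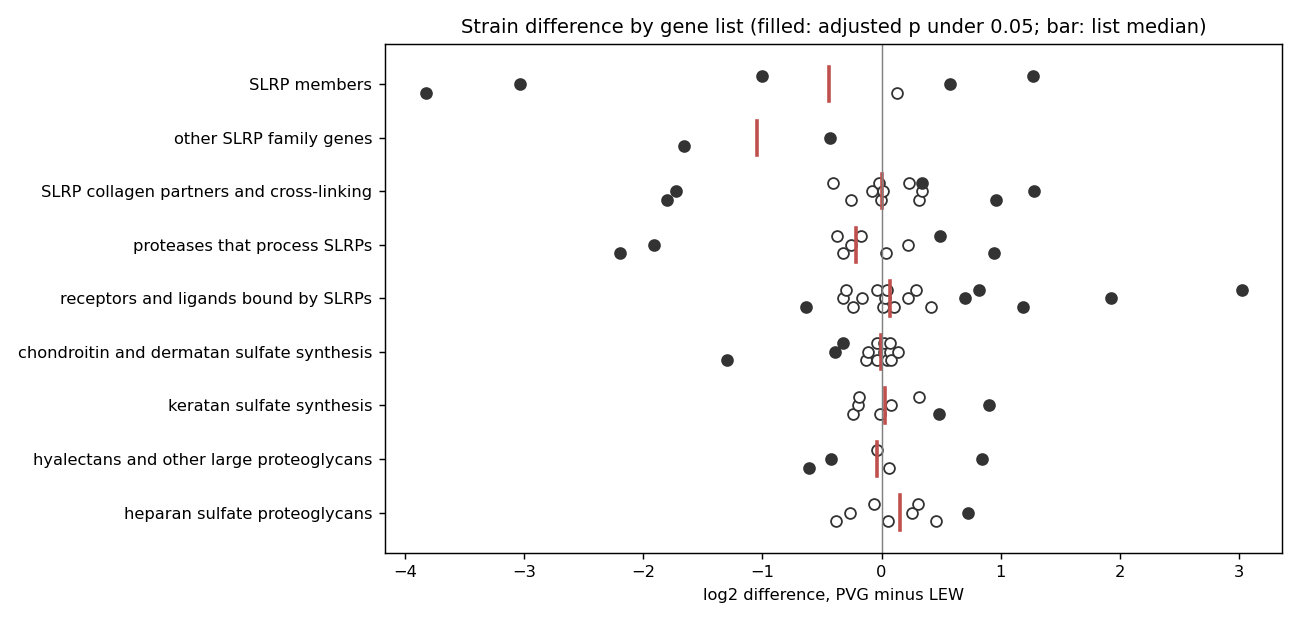
Log2 difference of PVG minus LEW (horizontal axis) for every tested gene of the SLRP members and of 8 related lists, 1 point per gene, filled where the adjusted p was under 0.05, with a red bar at the median of the list. The members run from -3.83 to 1.27 with a median of -0.44, and most genes of chain synthesis lie near 0.

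Some cell type markers differed between the strains, as 7.45% of all probes tested were higher and 7.46% lower in PVG. Among the markers tested, 0 of 3 endothelial, 1 of 3 leukocyte and 1 of 5 adipocyte markers passed. Of 13 tested fibroblast and MSC markers, 3 were higher in PVG and 3 lower, among them Vcam1 (log2 1.64) and Itgb1 (0.82) higher and Fbln1 (-0.76) lower. Of 8 tested smooth muscle and contractile markers, 7 were higher in PVG, and their summed signal was 4333 to 8042 in LEW and 20860 to 29532 in PVG. Actg2, the smooth muscle γ-actin gene, was 43.8-fold higher and Des, the gene of the muscle filament desmin, 11.4-fold higher. The summed signal of the pericyte markers was 1551 to 3143 in LEW and 919 to 987 in PVG, with Anpep 5.25-fold lower. Of the other 2 pericyte markers tested, Cspg4 was 1.79-fold higher in PVG and Mcam did not pass (log2 0.29), while Rgs5, Notch3 and Higd1b were undetected. Tnmd, a tendon marker, was undetected on all PVG arrays and at least 3.04-fold lower, while Alpl, of the same list, did not pass (log2 -0.18). Wt1, a mesothelial marker detected on all PVG arrays but on 1 of 4 LEW arrays, was higher in PVG (limma adjusted p = 1.93e-05). The other 2 mesothelial markers tested, Msln (log2 -0.10) and Krt8 (log2 -0.20), did not pass. The leukocyte markers, of which 8 of 13 with a probe were undetected, summed to 927 to 966 in LEW and 920 to 1077 in PVG. The part of such marker differences in the SLRP differences was not tested.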

How the data were processed

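The 8 single-colour Illumina arrays held ASCs of 2 rat strains, as control or with LPS. The authors deposited a signal intensity for each probe on a linear scale, neither background-subtracted nor normalized, with a detection p-value computed before deposit against each array's negative controls. A second table that the authors deposited holds intensities normalized between arrays and served as an alternative. The methods describe a 75th percentile shift, so each array was scaled to the same 75th percentile, and log2 was taken after a floor of 16 that no value reached. Of 22523 probes, 9552 were kept because both arrays of some group had a detection p under 0.05, and 7114 of these had a gene symbol. One limma 3.58.1 fit (R 4.3.3) of the 4 group means gave the strain, LPS and interaction contrasts, and the same fit with time added gave the time difference. Benjamini-Hochberg adjustment covered all kept probes. Figures were drawn with matplotlib 3.10.9.

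The members, the 8 related lists, the 9 marker lists and the motifs were chosen with earlier results of these data known. The brightest probe stood for each gene. All members are described, and of the lists up to 3 genes with the smallest p per comparison are named. Btg1, Tlr4 and the undetected genes were named after their values were seen. Where a gene was undetected on all arrays of a group, a bound was computed against the lowest detected signal of each array. Alternatives were quantile normalization, neqc (offset 16), normexp (offset 50), a floor of 64, the second table, additive fits, an intensity trend, stricter and no detection filters, a block for the time point, analysis of variance (the methods' 2-way test) without moderation, and fits that left out each array. The fit was tested on simulated data. The number of arrays limits the precision.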

Additional observations from a re-analysis of the deposited data

Results flagged for a closer look

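For Bgn the LPS arrays were slightly above their controls in LEW (log2 ratios of 0.004 at 24 h and 0.04 at 48 h) and below them in PVG (-0.51 and -0.11), so that all pairs of one strain moved one way and all pairs of the other the opposite way. The PVG minus LEW difference of the mean ratios was -0.3282, and its interaction in limma did not pass (adjusted p = 0.999). Such opposite directions were met by 9.60% of all probes tested.

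For Fmod the 48 h control arrays were slightly below those of 24 h (log2 ratios of -0.09 in LEW and -0.11 in PVG), whereas the 48 h LPS arrays were above those of 24 h (1.47 in LEW and 0.75 in PVG). The difference between LPS and control was 1.2121 on the log2 scale. It was not tested, and 10.5% of all probes had opposite directions of this kind. With 2 arrays per group, no array could be tested as standing apart within its group.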

How the results depend on the processing

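Besides the fits that left out 1 array, 14 alternatives were run, and no member that passed changed sign in any of them. Of the member values, 876 were in the same direction and on the same side of the threshold, 45 lost a call, 39 gained one and 12 changed sign, all 12 below the threshold and with 1 array left out.

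The counts of members that passed changed as follows. The analysis of variance without moderation gave 3 for the strain difference, and 0 for the strain difference in control and in LPS-treated ASCs, the LPS response and the time difference. Quantile normalization and the authors' second table each gave 3 in control ASCs, and neqc and an intensity trend each gave 4; with LPS the block gave 4. For the LPS response, neqc and an intensity trend gave 3, no detection filter and the time point as a block gave 4, and the additive fit gave 2. In LEW alone, no detection filter and an intensity trend gave 1 and the block gave 3; in PVG alone, no filter gave 1 and the block 3. For the time difference no filter gave 2 and the additive fit of strain, LPS and time gave 0. With 1 array left out, the counts ranged from 3 to 5 for strain, 1 to 5 in control ASCs, 3 to 4 in LPS-treated ASCs, 0 to 4 for LPS, 0 to 2 for LPS in LEW, 0 to 1 for LPS in PVG and 0 to 2 for time. The interaction stayed at 0 in all of these. The causes of these differences were not tested.

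Over all probes, the counts past the threshold ranged over these settings from 465 to 2232 for strain (1425 as reported), 77 to 1216 in control ASCs (663), 63 to 1189 in LPS-treated ASCs (578), 9 to 585 for LPS (216) and 3 to 721 for time (375). For LPS within a strain they ranged from 4 to 336 in LEW (62) and from 4 to 172 in PVG (30).

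With 1 array left out, uncalled log2 differences crossed 0 as follows. Fmod ranged from -0.2373 to 0.4957 between the strains (-0.059 in 1 fit) and from -0.8929 to 0.5731 between them with LPS (0.2165 in 1 fit). The LPS response in LEW ranged from -0.1502 to 0.1943 for Bgn (-0.1319 in 1 fit) and from -0.1017 to 0.3179 for Prelp. The interaction ranged from -0.4743 to 0.8993 for Lum (-0.2786 and -0.0263 in 2 fits), from -0.2235 to 0.6862 for Ogn and from -1.3112 to 0.1549 for Fmod.

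The pooled RNA, with the same 3 rats in all 4 arrays of a strain, and the missing labels of chip and scan limit all comparisons, as does the single probe per gene. Signals near the background, as those of Fmod in control ASCs and of Tsku, understate folds. The labels number no replicates, so arrays were paired only by time point, which entered as a block.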
